A study of Homo sapiens with 9 samples.

Results

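The genes described here are 41 members of the cellular stress response, named individually as a set and read from a table of 23278 gene entries. They fall into an ATF4 and amino acid arm of 25 genes and an endoplasmic reticulum (ER) chaperone arm of 16 genes. The membership was chosen by gene function, with earlier results of these data known. All 41 members were found and had a mean of at least 1 FPKM (fragments per kilobase of transcript, scaled to the size of the library, so that a level is already divided by transcript length). The source was RT112, an established cell line from a human bladder carcinoma, sequenced as 9 RNA libraries. In 3 libraries the cells carried a control short hairpin RNA (shNT), in 3 a first hairpin against STAG2 (sh1) and in 3 a second hairpin (sh2), STAG2 being a subunit of the cohesin ring. All 9 libraries shared transduction followed by medium without serum, and each RNA sample received the same quantity of ERCC spike-in transcripts before stranded poly(A)+ library preparation, per the labels' protocols. The replicates of each group are numbered 1 to 3 in the sample titles, and no label says whether a number marks a separate culture, a day or a batch. The p-values below therefore measure the spread between these libraries, which may be technical.

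ATF4 is a transcription factor whose protein is made when kinases that sense amino acid shortage, ER stress, haem shortage or double-stranded RNA phosphorylate the initiation factor eIF2. It switches on amino acid synthesis enzymes, amino acid transporters and aminoacyl-tRNA synthetases, together with regulators such as DDIT3 and TRIB3, and because it is controlled mainly at translation its mRNA level reports only part of its activity. The ER chaperone arm belongs to the unfolded protein response, in which ATF6 and the spliced form of XBP1 raise chaperones, disulfide isomerases and degradation factors when unfolded proteins collect in the ER. The kinase EIF2AK3 (PERK) is an ER sensor that feeds into ATF4, so the arms can be engaged together by ER stress, or the ATF4 arm alone by lack of amino acids.

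The promoters of the arms carry different known elements, and sites from members on which the results turn are shown here. RefSeq windows from 250 bases before to 50 bases after each annotated start (GRCh38.p14) were found for 38 of the 41 members, in 55 windows, with AARS, GARS, WARS and SARS matched under their current symbols. PSPH, SHMT2 and SLC7A11 were not matched. Both strands were searched for the amino acid response core bound by C/EBP and ATF4 dimers (CARE, TGATGNAA) and for the ER stress element (ERSE, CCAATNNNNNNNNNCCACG). The shorter ER stress element II (ERSE-II, ATTGGNCCACG) and the core of the XBP1 element (UPRE core, TGACGTGG) were searched in the same way. In the lines below, read 5′ to 3′ along the gene's own strand, capitals mark the matched element, which appears as its reverse complement where it lies on the opposite strand. The first 5 lines are CARE matches, the next 4 are ERSE matches and the last is an ERSE-II match. They lie at chr7:97872458-97872487 (minus strand, ASNS), chr15:40953251-40953280 (plus, CHAC1), chr16:70289675-70289704 (minus, AARS), chr7:30594834-30594863 (plus, GARS) and chr16:56931955-56931984 (plus, HERPUD1). The ER elements lie at chr9:125241386-125241414 (minus, HSPA5), chr12:103930211-103930239 (plus, HSP90B1), chr22:28800598-28800626 (minus, XBP1), chr19:12938379-12938407 (plus, CALR) and chr16:56932016-56932044 (plus, HERPUD1). All 10 lie upstream of the start that RefSeq gives for the gene.
ASNS: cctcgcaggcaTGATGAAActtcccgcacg
CHAC1: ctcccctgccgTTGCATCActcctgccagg
AARS: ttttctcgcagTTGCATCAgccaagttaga
GARS: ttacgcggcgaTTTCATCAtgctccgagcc
HERPUD1: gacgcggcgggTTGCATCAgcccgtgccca
HSPA5: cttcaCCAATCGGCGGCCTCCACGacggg
HSP90B1: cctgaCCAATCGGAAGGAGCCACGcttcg
XBP1: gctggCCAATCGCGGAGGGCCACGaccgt
CALR: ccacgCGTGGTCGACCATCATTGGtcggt
HERPUD1: cggacgccgATTGGGCCACGttgggagag

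The CARE core was present in 7 of the 22 ATF4 arm genes with a window (ASNS, CHAC1, SLC3A2, SLC7A1, CEBPG, AARS and GARS) and in 1 of 16 ER arm genes, HERPUD1. Among 27305 genes with windows, 4.46% held it, and among 35116 windows 3.62% did. The ERSE was found in 6 of 16 ER arm genes (HSPA5, HSP90B1, XBP1, PDIA6, CALR and CRELD2), in 0 of 22 ATF4 arm genes and in 0.0916% of all genes (0.0769% of windows). The ERSE-II was found in HERPUD1, SDF2L1 and HYOU1, 3 of the 16 ER arm genes, against 0.0696% of all genes and 0.0541% of windows. HYOU1 also held the UPRE core (0.927% of all genes, 0.729% of windows), overlapping one of its ERSE-II matches. HERPUD1, an ER membrane protein that helps to bring misfolded proteins to degradation, was the only member whose window held a match of both the CARE and an ER stress element. These matches describe the letters of the windows and do not show binding.

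STAG2, the targeted gene, stood at 26.4 ± 9.02 FPKM (SD, n = 3) in shNT, 4.41 ± 0.824 in sh1 and 3.94 ± 0.857 in sh2, and both hairpins together lowered it (log2 difference -2.36, adjusted p = 0.00797 by limma). That call was lost without shNT replicate 3 (adjusted p = 0.0561). The FPKM of all genes added up to 516464 in shNT replicate 1 and to 397792 up to 434433 elsewhere, and in shNT replicate 1 long transcripts read low (Spearman's rho of the deviation with transcript length -0.59 across 10721 genes, against -0.048 to 0.30 in the others). All 10 epithelial and urothelial markers had a mean of at least 1 FPKM, with summed levels of 2432 to 4038 in shNT, 2979 to 3727 in sh1 and 3242 to 3799 in sh2. Markers of other cell types reached that level in 1 of 8 cases for immune cells, 0 of 6 for endothelium and 2 of 7 for fibroblasts, of which LUM reached 408 FPKM. The part of these marker and length differences in the results below was not tested.

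The widest variation among the members followed the replicate number, not the hairpin, and lay in the amino acid genes. ASNS, the enzyme that makes asparagine, was at 9.40, 9.24 and 78.2 FPKM in shNT replicates 1, 2 and 3, at 6.50, 7.57 and 84.4 in sh1, and at 5.41, 8.77 and 22.2 in sh2. CHAC1, which breaks down glutathione and is a known target of ATF4, was at 1.22, 0.672 and 10.6 FPKM in shNT, 0.783, 0.532 and 13.2 in sh1, and 0.602, 0.839 and 3.31 in sh2. PSAT1, a transaminase of the serine pathway, was at 7.43, 5.41 and 45.5 FPKM in shNT, 5.66, 6.01 and 56.8 in sh1, and 5.40, 4.98 and 12.3 in sh2. For each of these genes the 3 libraries numbered 3 lay above the 6 others with no overlap, and within number 3 the sh2 library was the lowest. The ratio of number 3 to the mean of numbers 1 and 2 was 8.39, 12.0 and 3.13 for ASNS in shNT, sh1 and sh2, 11.2, 20.1 and 4.58 for CHAC1, and 7.08, 9.73 and 2.37 for PSAT1.

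**Figure D1:**
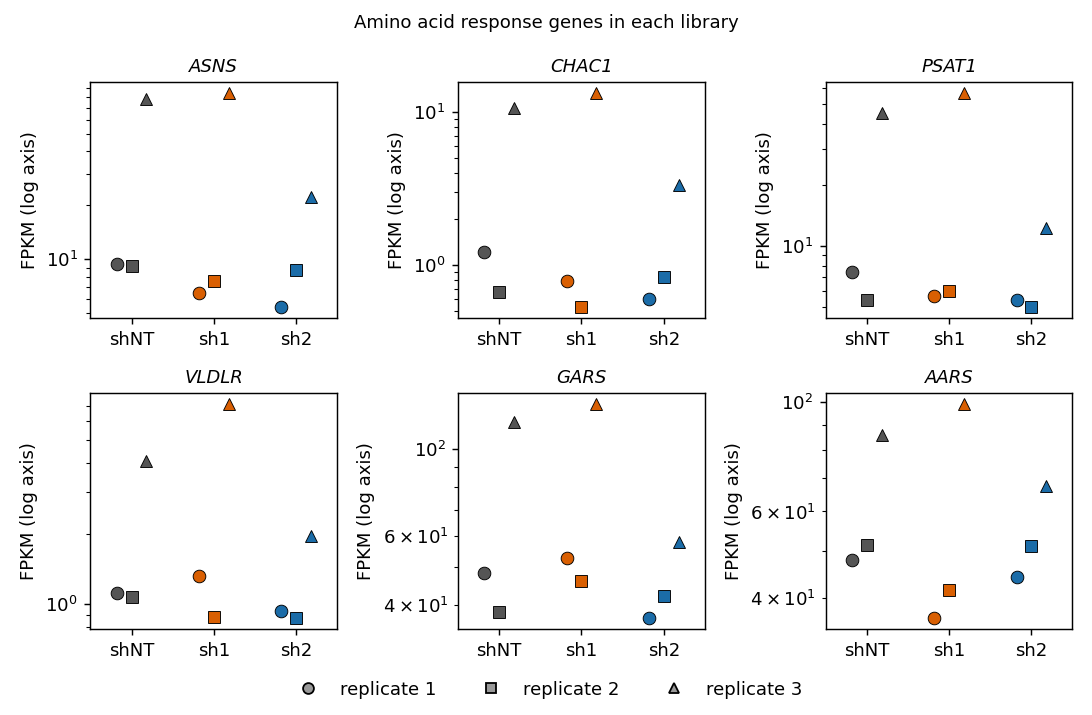
FPKM (log axis) of ASNS, CHAC1, PSAT1, VLDLR, GARS and AARS in each library, by hairpin, with 1 point per library and the marker shape giving the replicate number. In each panel the 3 libraries numbered 3 (triangles) lie above the 6 others, and the sh2 triangle is the lowest of them.

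A test of the replicate number over all genes, in a limma model with hairpin and number, was added after these values were seen. It was an F test for any difference among the 3 numbers, and each adjusted p by number comes from it. The number 3 differences given beside these p-values were estimated separately and carry no p of their own. The F test called ASNS (limma, adjusted p = 0.0289) and CHAC1 (limma, adjusted p = 0.0365). Without the number 3 libraries 24 of the 25 ATF4 arm genes reached a mean of 1 FPKM, and CHAC1 (0.532 to 1.22 FPKM) did not. CHAC1 thus entered the test only through the libraries where it was high, so its call adds no support to a difference by number. Number 3 stood above the mean of numbers 1 and 2 by 2.64 ± 0.30 for ASNS and 2.34 ± 0.29 for CHAC1 (log2 ± SE). PSAT1 stood 2.28 ± 0.31 higher and missed the threshold (limma F test, adjusted p = 0.0514). The test called 0.393% of the 11952 genes tested, and 2 of 41 members. At an unadjusted p under 0.05 it passed 16 of 25 ATF4 arm genes and 3 of 16 ER arm genes (XBP1, HERPUD1 and HSPA5), against 17.4% of all genes. Counting only genes with number 3 above the mean of numbers 1 and 2, 15 of the 25 and all 3 of the ER genes passed that level, against 7.99% of all genes. This count does not need number 3 to be the highest. DDIT3 was highest in number 1 in shNT (25.9 FPKM, against 19.8 in number 3) and in sh2 (22.0 against 18.9). HSPA5 was highest in number 2 in the same groups. The calls of ASNS and CHAC1 were lost when any one of 7 libraries was left out (the exceptions were shNT replicate 1 and sh2 replicate 3) and when low genes were not filtered out, although the ASNS difference stayed between 2.25 and 3.18 and that of CHAC1 between 1.96 and 2.85.

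The other synthesis enzymes gave smaller differences, none of which passed, and their number 3 libraries overlapped the rest. PHGDH, which commits a glycolytic intermediate to serine synthesis, was at 196, 88.4 and 208 FPKM in shNT, 64.3, 61.8 and 232 in sh1, and 97.1, 74.7 and 133 in sh2. Its high value in shNT replicate 1 overlapped the libraries numbered 3. SHMT2 and MTHFD2, mitochondrial enzymes that move one-carbon units from serine into folate, stood higher in number 3 by 0.83 and 0.93 on the log2 scale. The limma F test of the number gave adjusted p = 0.103 and 0.146. The sh2 replicate 3 value of SHMT2 (55.5 FPKM) lay below shNT replicate 1 (66.5), and that of MTHFD2 (57.4) below sh2 replicate 1 (58.3). PSPH, the last enzyme of serine synthesis, did not share this: it was at 16.4, 11.9 and 15.4 FPKM in shNT, 12.3, 11.1 and 10.7 in sh1, and 9.35, 11.5 and 10.8 in sh2. Its number 3 difference was 0.02 on the log2 scale.

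The 4 aminoacyl-tRNA synthetases, which charge transfer RNAs with amino acids, were high in the shNT and sh1 libraries numbered 3. GARS, for glycine, was at 48.4, 38.5 and 117 FPKM in shNT, 52.7, 46.1 and 130 in sh1, and 37.1, 42.2 and 57.8 in sh2. AARS, for alanine, was at 47.8, 51.2 and 85.9 FPKM in shNT, 36.5, 41.6 and 99.1 in sh1, and 44.2, 51.1 and 67.6 in sh2. Neither gene overlapped between number 3 and the other numbers, whereas WARS and SARS did overlap through sh2 replicate 3. The median deviation of the 4 synthetases from their gene means was 0.76 in shNT replicate 3, 0.84 in sh1 replicate 3 and -0.043 in sh2 replicate 3 (log2).

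Among the stress-induced regulators, DDIT4, an inhibitor of mTORC1 signalling, was at 90.0, 63.3 and 164 FPKM in shNT, 41.3, 54.5 and 163 in sh1, and 33.5, 52.3 and 68.7 in sh2. VLDLR, a lipoprotein receptor and known ATF4 target, was at 1.12, 1.08 and 4.06 FPKM in shNT, 1.32, 0.886 and 7.11 in sh1, and 0.937, 0.874 and 1.96 in sh2, with no overlap between number 3 and the others. SESN2, a leucine-binding regulator of mTORC1, ranged from 6.97 to 13.8 FPKM, and its sh2 replicate 3 value of 7.43 lay among the lowest. PPP1R15A, a phosphatase subunit that reverses eIF2 phosphorylation, went another way. It was at 94.1, 34.0 and 26.9 FPKM in shNT, 56.3, 19.4 and 37.8 in sh1, and 108, 42.7 and 57.5 in sh2, so that number 1 was the highest within each group. Its replicate number test gave an adjusted p of 0.0666 (limma).

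The transporters were mixed. SLC7A5 and SLC3A2, the light and heavy chains of a carrier for large neutral amino acids, were highest in sh1 replicate 3 (322 FPKM) and shNT replicate 1 (375 FPKM), respectively. SLC7A11, the cystine importer, ranged from 54.0 FPKM in shNT replicate 1 to 140 in sh2 replicate 1, and number 3 did not stand out (log2 difference -0.05). SLC7A1, a carrier for cationic amino acids, was at 15.1, 29.9 and 42.4 FPKM in shNT, 31.0, 30.5 and 56.2 in sh1, and 45.3, 38.1 and 43.3 in sh2. The shNT replicate 1 value was the lowest of the 9 for both SLC7A11 and SLC7A1, in the library where long transcripts read low. In the same library the short members DDIT3 (1067 bases, 25.9 FPKM) and SDF2L1 (865 bases, 23.3 FPKM) were the highest of the 9. VLDLR, with 9163 bases, was not at its lowest there (1.12 FPKM, against 0.874). The part of length in the hairpin differences, higher or lower, was not tested.

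**Figure D2:**
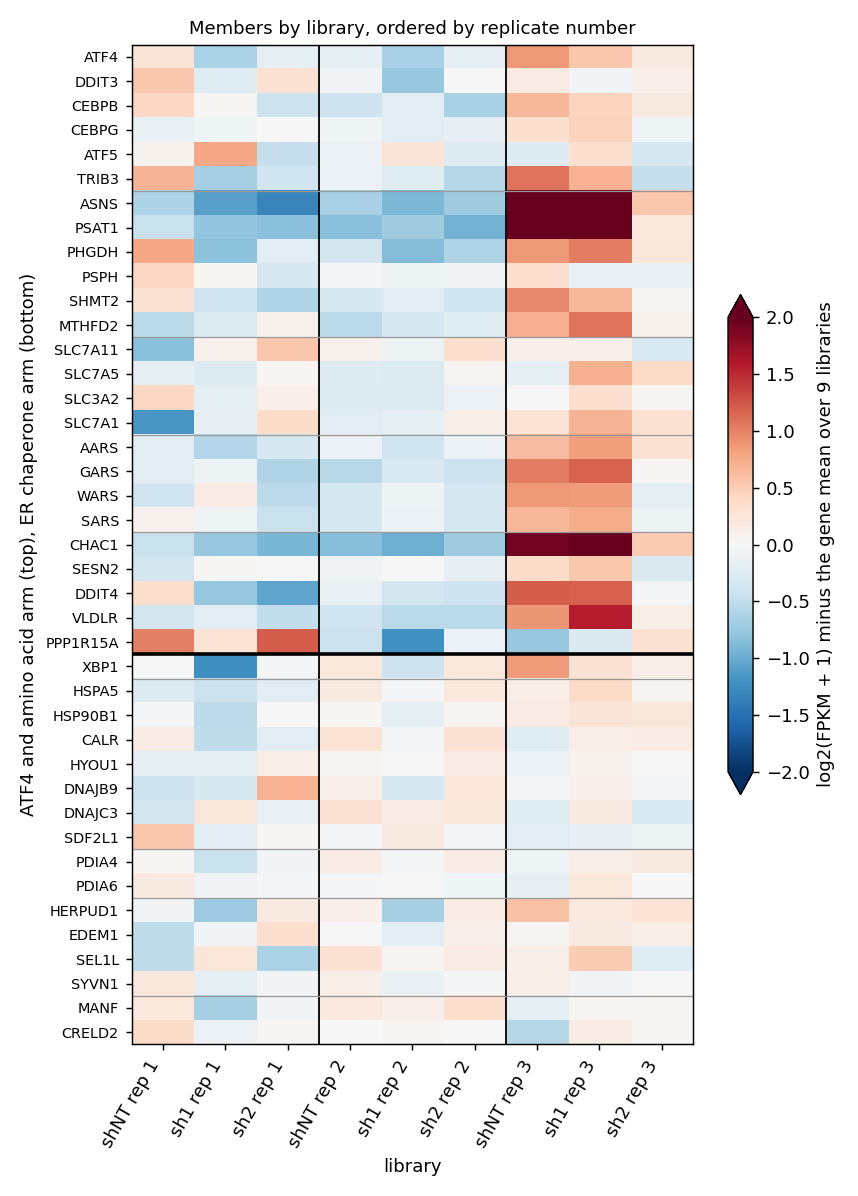
log2(FPKM + 1) of the 41 members minus each gene's mean over the 9 libraries (colour, saturated at 2 either way), with libraries as columns ordered by replicate number and genes as rows grouped by role. Dark red cells for ASNS, PSAT1 and CHAC1 stand in shNT and sh1 replicate 3, while the ER chaperone arm below the thick line shows paler colours in the same columns.

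ATF4 itself was at 282, 206 and 431 FPKM in shNT, 151, 150 and 343 in sh1, and 206, 207 and 266 in sh2. Number 3 was the highest library within each group, by ratios of 1.76, 2.28 and 1.29 to the mean of numbers 1 and 2, but shNT replicate 1 overlapped sh2 replicate 3. TRIB3, a pseudokinase induced by ATF4 and DDIT3, was at 42.2, 23.7 and 55.9 FPKM in shNT, 15.9, 21.7 and 42.6 in sh1, and 19.4, 17.2 and 18.6 in sh2. All 3 sh2 values lay below the 3 control values, an order whose share over all genes was not counted, while sh1 overlapped the control. DDIT3 (CHOP), a transcription factor of prolonged ER stress, was at 25.9, 16.7 and 19.8 FPKM in shNT, 14.7, 10.0 and 16.8 in sh1, and 22.0, 17.7 and 18.9 in sh2, with a number 3 difference of 0.10 on the log2 scale. CEBPB and CEBPG, partners of ATF4 in its dimers, stood 0.64 ± 0.13 and 0.35 ± 0.13 higher in number 3 (log2 ± SE). The limma F test of the number gave adjusted p = 0.0754 and 0.326.

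The arms differed in how far they moved between libraries. The median over the ATF4 arm of the range across 9 libraries was 1.52 on the log2 scale, against 0.80 for the ER arm and 0.79 for all tested genes. The median deviation of the ATF4 arm was -0.13, -0.28 and 0.66 in shNT replicates 1, 2 and 3, -0.23, -0.27 and 0.70 in sh1, and -0.33, -0.26 and 0.069 in sh2. Every library numbered 3 lay above every library numbered 1 or 2 in that median. The ER arm medians were -0.017, 0.11 and -0.059 in shNT, -0.27, -0.027 and 0.16 in sh1, and -0.032, 0.15 and 0.029 in sh2, and the numbers overlapped. The median difference of number 3 from the mean of numbers 1 and 2 was 0.80, 0.98 and 0.29 for the ATF4 arm in shNT, sh1 and sh2, and -0.051, 0.34 and 0.022 for the ER arm. Over all tested genes it lay between -0.018 and 0.0011.

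**Figure D3:**
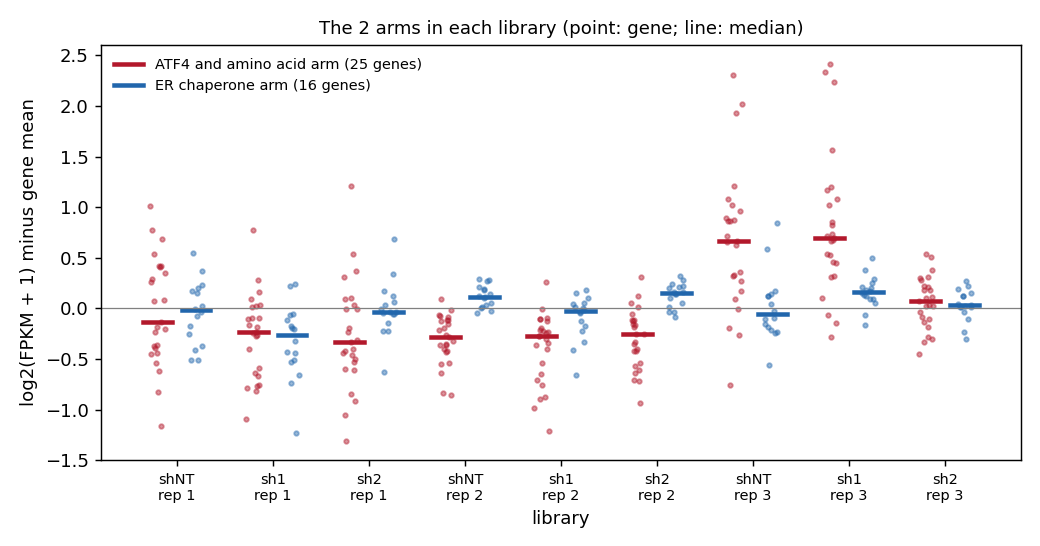
log2(FPKM + 1) minus the gene's mean over 9 libraries (vertical axis) in each library (horizontal axis), with 1 point per gene and a line at the median of each arm. The ATF4 arm medians of shNT and sh1 replicate 3 (0.66 and 0.70) stand apart from the ER arm medians of the same libraries (-0.059 and 0.16).

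By gene, 6 of 25 ATF4 arm members (ASNS, CHAC1, PSAT1, VLDLR, AARS and GARS) and 2 of 16 ER arm members (HSP90B1 and HERPUD1) had all number 3 libraries above all others, which held for 3.02% of tested genes. CHAC1 was among the tested genes only through its number 3 values. The opposite order held for 0 of 41 members and 3.65% of tested genes. HSP90B1, the ER form of HSP90, was at 304, 319 and 350 FPKM in shNT, 215, 275 and 371 in sh1, and 310, 322 and 362 in sh2. The margin for HSP90B1 was small beside that of the amino acid genes. HSPA5 (BiP), the main ER chaperone and the usual marker of the unfolded protein response, was at 125, 169 and 164 FPKM in shNT, 110, 145 and 194 in sh1, and 127, 173 and 154 in sh2, with number 1 the lowest in each group.

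Within number 3 the sh2 library lay below the control library for some ATF4 arm genes and not for others. Its ratio to the control library was lowest for PSAT1 (0.270), ASNS (0.284), CHAC1 (0.313), TRIB3 (0.334) and DDIT4 (0.419). For the transporters it was 0.756 for SLC7A11, 1.02 for SLC7A1 and for SLC3A2, and 1.496 for SLC7A5. The highest ratio of the arm was 2.13, for PPP1R15A. For ASNS the log2 difference of sh2 from shNT was -0.70, -0.068 and -1.77 at numbers 1, 2 and 3. There is 1 library of each hairpin at each number, so whether the hairpin difference itself varied with the number could not be tested.

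The comparison of the hairpins with the control asks whether loss of STAG2 shifted either arm, and no member passed. limma called 0 of 41 members over both hairpins (1 gene, 0.00837% of those tested, was called), 0 for sh1 (0.167% of genes), 0 for sh2 (0.00837%) and 0 for sh2 against sh1 (0.218%). At an unadjusted p under 0.05 there were 3 members over both hairpins (12.6% of genes), 5 for sh1 (13.5%), 2 for sh2 (12.7%) and 3 for sh2 against sh1 (14.1%). The shares of members at that level lay near or below those of all genes. SYVN1 was the only member whose 6 silenced libraries all lay below the 3 controls, an order found for 2.17% of tested genes, and 0 members had them all above (2.28%).

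The median log2 difference of the ATF4 arm was -0.15 over both hairpins, -0.047 for sh1 and -0.38 for sh2, and that of the ER arm was -0.036, -0.11 and 0.019. All tested genes had medians of -0.017, -0.0074 and -0.012. Over both hairpins 18 of 25 ATF4 arm genes and 9 of 16 ER arm genes were lower, against 6296 of all 11952 tested genes. For sh1 13 and 10 were lower (6097 of all genes), and for sh2 20 and 7 were (6188 of all genes). The comparisons share their controls. Scaling to the spike-ins moved the median of all genes to 0.14 over both hairpins and that of the ATF4 arm to 0.022, still below all genes. Single libraries set the sign of the ATF4 arm median: without shNT replicate 3 it was 0.093 over both hairpins, 0.28 for sh1 and 0.030 for sh2. For sh2 against sh1 the medians were -0.33 in the ATF4 arm and 0.16 in the ER arm, and without all libraries numbered 3 they were -0.022 and 0.26.

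**Figure D4:**
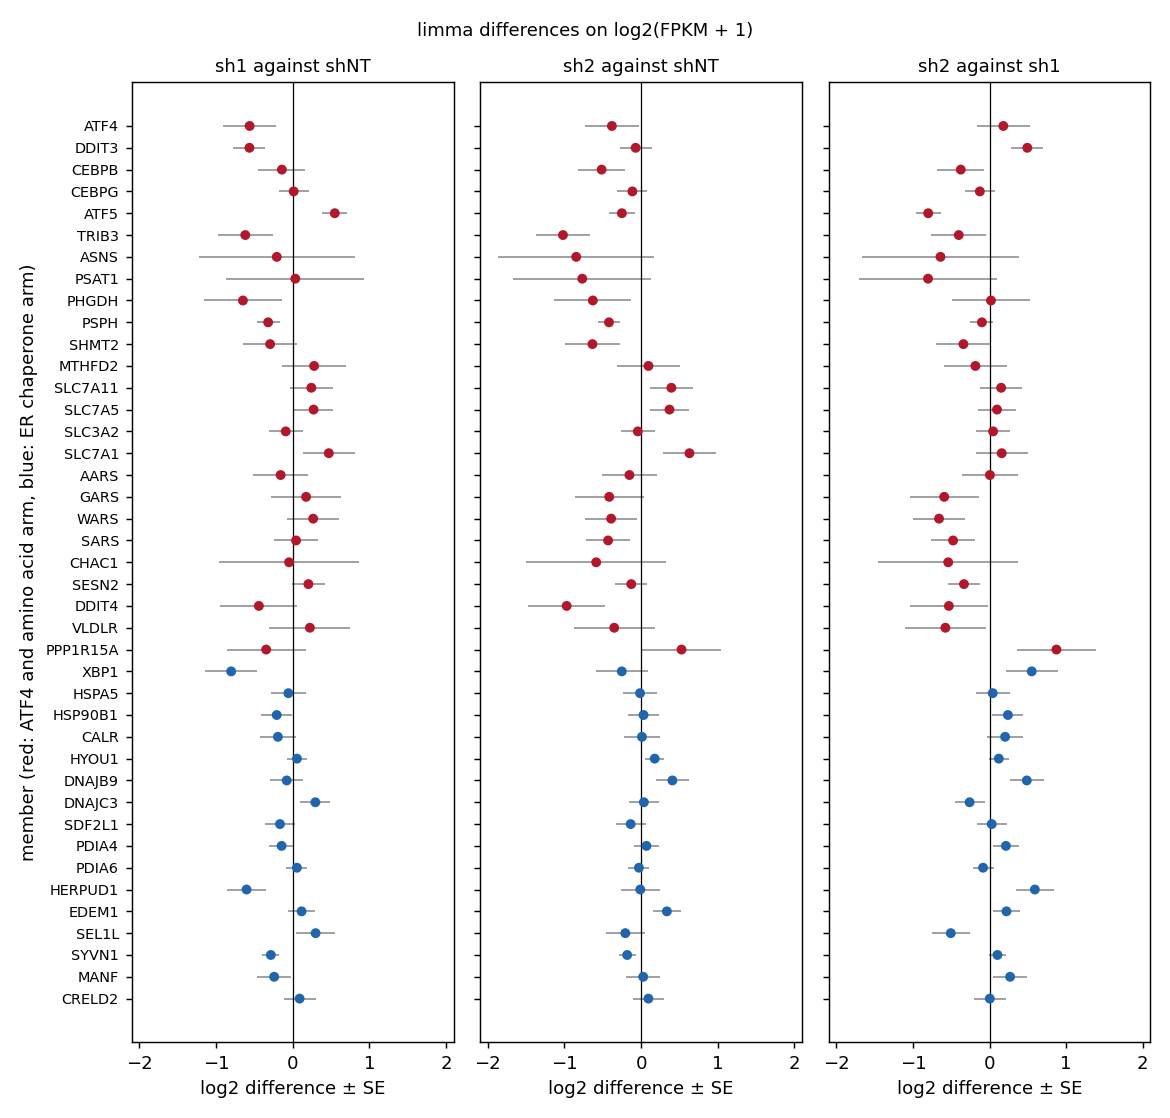
limma log2 differences (horizontal axis, point with standard error) of each member for sh1 against shNT, sh2 against shNT and sh2 against sh1, ATF4 arm in red and ER arm in blue. No member passed the adjusted threshold in any panel, and the widest error bars belong to ASNS, CHAC1 and PSAT1.

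Among the transcription factors and regulators, TRIB3 had the lowest difference over both hairpins, -0.82 ± 0.31 (log2 ± SE, limma, adjusted p = 0.357), made up of -0.62 for sh1 and -1.02 for sh2. It was lower than the same-numbered control in 6 of 6 silenced libraries. ATF4 differed by -0.47 ± 0.30 (adjusted p = 0.502, limma), or ± 0.17 with the replicate number as a block (adjusted p = 0.235, limma). Its sh1 differences from the same-numbered control were -0.90, -0.46 and -0.33, and those of sh2 were -0.46, 0.0059 and -0.69. DDIT3 differed by -0.56 ± 0.21 with sh1 (limma, adjusted p = 0.291) and by -0.07 with sh2. ATF5, a relative of ATF4 that is regulated in the same way, was at 12.3, 10.7 and 9.53 FPKM in shNT, 20.6, 14.1 and 14.7 in sh1, and 8.18, 9.56 and 8.98 in sh2. The sh1 values all lay above the controls (share over all genes not counted), and sh2 overlapped the controls by a single value. Among the 4 hairpin comparisons ATF5 had the smallest p of any member: sh2 stood 0.80 ± 0.17 below sh1 on the log2 scale (limma, adjusted p = 0.0911, or 0.0737 with the replicate number as a block).

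**Figure D5:**
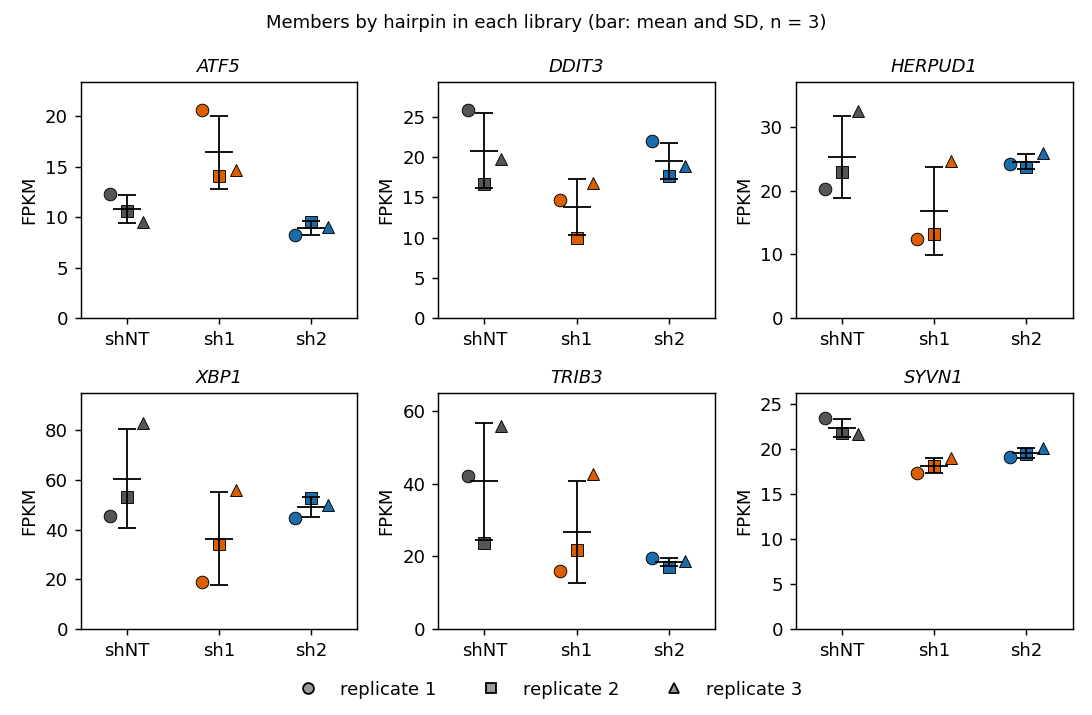
FPKM of ATF5, DDIT3, HERPUD1, XBP1, TRIB3 and SYVN1 by hairpin (1 point per library, shape giving the replicate number, bar and whiskers giving mean and SD, n = 3). ATF5 is highest in the 3 sh1 libraries, and all 6 silenced libraries of SYVN1 lie below the 3 controls.

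Over both hairpins DDIT4 differed by -0.71 ± 0.44, PHGDH by -0.64 ± 0.44 and SLC7A1 by 0.55 ± 0.30 (log2 ± SE, limma, adjusted p = 0.493, 0.526 and 0.433). The SLC7A1 difference was 0.16 without shNT replicate 1, the library in which it was lowest. PSPH differed by -0.37 ± 0.13 (limma, adjusted p = 0.343), with 1 silenced library (12.3) above the lowest control (11.9). WARS, the tryptophan synthetase, was at 25.2, 26.0 and 61.6 FPKM in shNT, 37.6, 31.2 and 61.3 in sh1, and 22.8, 26.3 and 29.2 in sh2. Its difference over both hairpins was -0.06, turned to 0.11 with spike-in scaling, and that of sh2 from sh1 was -0.66 ± 0.34 (limma, adjusted p = 0.412).

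In the ER arm, XBP1, the transcription factor whose mRNA is spliced on ER stress, was at 45.7, 53.0 and 83.0 FPKM in shNT, 18.9, 34.2 and 56.1 in sh1, and 44.7, 52.8 and 50.0 in sh2. At each number sh1 lay below the control, and the sh1 difference was -0.80 ± 0.34 (log2 ± SE, limma, adjusted p = 0.348). HERPUD1 was also lower in sh1 than in the control at each number, with 20.2, 23.0 and 32.5 FPKM in shNT, 12.4, 13.1 and 24.7 in sh1, and 24.2, 23.7 and 25.9 in sh2. Its differences were -0.60 ± 0.25 for sh1 and 0.59 ± 0.25 for sh2 against sh1 (limma, adjusted p = 0.342 and 0.333). Gene-level FPKM does not separate spliced from unspliced XBP1.

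No chaperone passed the test in any hairpin comparison. HSPA5 averaged 153 ± 24.3 FPKM in shNT, 150 ± 42.2 in sh1 and 151 ± 22.8 in sh2 (SD, n = 3), a difference over both hairpins of -0.03 ± 0.19 (log2 ± SE, limma, adjusted p = 0.944) that became 0.14 with spike-in scaling and 0.038 with quantile normalization. CALR, a lectin chaperone, had the highest level of the arm, at 569 ± 99.5, 501 ± 111 and 573 ± 99.2 FPKM in the same order. HYOU1, an ER relative of HSP70, was at 40.1, 46.9 and 41.9 FPKM in shNT, 40.1, 45.8 and 48.4 in sh1, and 49.5, 50.8 and 45.8 in sh2, with a difference over both hairpins of 0.12 ± 0.11 (log2, limma, adjusted p = 0.637). DNAJB9, a BiP cochaperone and repressor of the sensor ERN1 (IRE1), was at 4.46, 6.85 and 6.15 FPKM in shNT, 4.81, 4.77 and 6.78 in sh1, and 10.7, 7.61 and 6.09 in sh2. Its sh2 difference from sh1 of 0.49 ± 0.22 (log2, limma, adjusted p = 0.355) was widest at number 1. The cochaperones DNAJC3 and SDF2L1 ranged from 4.95 to 8.35 and from 13.4 to 23.3 FPKM.

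The disulfide isomerases PDIA4 and PDIA6 varied little, from 50.5 to 78.8 and from 68.3 to 88.3 FPKM. MANF and CRELD2, secreted proteins induced by ER stress, ranged from 56.5 to 113 and from 14.4 to 28.3 FPKM, with the lowest CRELD2 value in shNT replicate 3. Among degradation genes, SYVN1 (HRD1), the ubiquitin ligase of the ER membrane, was at 23.5, 21.7 and 21.7 FPKM in shNT, 17.3, 18.1 and 19.0 in sh1, and 19.1, 19.4 and 20.1 in sh2. The difference was small, -0.23 ± 0.09 (log2 ± SE, limma, adjusted p = 0.370). SEL1L, its partner, was at 7.13, 13.2 and 11.6 FPKM in shNT, 12.7, 11.0 and 15.4 in sh1, and 6.45, 11.9 and 8.82 in sh2, and differed by 0.05 ± 0.22 (limma, adjusted p = 0.930). EDEM1, a lectin that directs misfolded glycoproteins to degradation, was at 24.2, 35.0 and 36.0 FPKM in shNT, 33.4, 29.6 and 39.5 in sh1, and 44.2, 37.4 and 37.9 in sh2. All 3 sh2 values of EDEM1 lay above the controls, an order whose share over all genes was not counted. The sh2 difference was 0.34 ± 0.18 (log2, limma, adjusted p = 0.427). Its lowest value was in shNT replicate 1, the library where long transcripts read low, and its longest transcript has 6146 bases. Over both hairpins its difference was 0.23, and 0.047 to 0.33 with 1 library left out.

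Same-numbered libraries correlated in their deviations, although some pairs with different numbers did too. With the number as a block the ATF4 arm gave more genes at an unadjusted p under 0.05. Over both hairpins 9 of 25 ATF4 arm genes passed that level (8 lower, SLC7A1 higher) and 2 of 16 ER arm genes (XBP1 and SYVN1, both lower), against 17.2% of all genes. For sh2 there were 8 ATF4 arm genes (7 lower) and 0 ER arm genes against 17.5%, for sh1 3 and 3 against 18.3%, and for sh2 against sh1 8 and 3 against 18.7%. The 8 lower over both hairpins were ATF4, CEBPB, DDIT3, DDIT4, PHGDH, PSPH, SHMT2 and TRIB3. At number 1, where the control was shNT replicate 1, all 8 were lower with both hairpins (PHGDH -1.59 with sh1, -1.01 with sh2). At number 2 their differences were smaller or turned (SHMT2 0.11 and -0.080, CEBPB 0.19 and -0.23). At number 3 all but PHGDH with sh1 (0.16) were lower. With no block, leaving out number 1 left 0 of 25 ATF4 arm genes at that level over both hairpins (4.95% of all genes). Leaving out number 3 left 3 lower and 1 higher of 24 (7.33%). Still 0 of 41 members passed the adjusted threshold in any of the 4 blocked comparisons, the lowest adjusted p in each being 0.191, 0.119, 0.225 and 0.0737 (limma, for both hairpins, sh1, sh2 and sh2 against sh1).

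Other genes of the same pathways were read from lists beside the members. Of 30 other ATF4 and amino acid response genes, 25 were tested. None was called by limma over both hairpins, with 0 at an unadjusted p under 0.05 (12.6% of all genes). The 3 with the smallest p were SLC38A2 (0.37), SHMT1 (-0.30) and SLC1A5 (-0.38, all log2). By the F test of the replicate number 19 of the 25 passed that level, against 17.4% of all genes, and VEGFA was called. In 17 of them number 3 lay above the mean of numbers 1 and 2, against 7.99% of all genes. VEGFA, an angiogenic growth factor, was at 12.7, 10.5 and 75.8 FPKM in shNT, 11.5, 8.90 and 43.7 in sh1, and 8.91, 9.31 and 19.7 in sh2. It stood higher in number 3 by 1.88 ± 0.25 (log2 ± SE, with adjusted p = 0.0460 by the limma F test of the number). Its order over the 9 libraries resembled that of ASNS, with sh2 the lowest of number 3.

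The next list held 19 other genes of the cytosolic synthetases, among them AIMP1, AIMP2 and EEF1E1, which are accessory proteins and not synthetases. All 19 stood lower over both hairpins (median -0.13) and for sh2 (median -0.27), against 6296 and 6188 of all 11952 tested genes. For sh1, 12 of 19 stood higher (median 0.043, all log2), against 5855 of all genes. With spike-in scaling, which moves all genes up, 7 of 19 were lower over both hairpins (median 0.050, all genes 0.14) and 13 of 19 for sh2 (median -0.024, all genes 0.21). With limma 0 of the 19 were called in either of those comparisons, and 5 reached an unadjusted p under 0.05 for sh2 (12.7% of all genes). FARSB and FARSA, the subunits of the phenylalanine enzyme, differed by -1.16 ± 0.28 and -0.52 ± 0.16 for sh2, and QARS, for glutamine, by -0.48 ± 0.16 (limma, adjusted p = 0.372 each).

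Of 46 other ER folding and degradation genes, 44 were tested, with a median of -0.035 over both hairpins and 0 called. At an unadjusted p under 0.05 there were 2, against 12.6% of all genes. These were ERO1L, an oxidase that drives disulfide formation, at 0.51 ± 0.17, and SRPR, the signal recognition particle receptor, at -0.55 ± 0.11 (log2 ± SE, limma, adjusted p = 0.342 and 0.314). KDELR3, a retrieval receptor, differed by -0.39. SRPR was called for sh1 and for sh2 against sh1. It was at 52.3, 52.1 and 53.9 FPKM in shNT, 23.8, 25.6 and 31.0 in sh1, and 46.6, 49.5 and 47.0 in sh2. With sh1 it fell by 0.96 (log2, adjusted p = 0.0496 by limma), and sh2 stood 0.82 above sh1 (limma, adjusted p = 0.0451).

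Among 17 upstream sensors and eIF2 factors, 0 were called over both hairpins by limma and 0 reached an unadjusted p under 0.05 (12.6% of all genes). EIF2AK3, the ER sensor kinase that feeds the ATF4 arm, was called for sh2 against sh1. It was at 5.41, 9.47 and 6.16 FPKM in shNT, 4.08, 3.78 and 4.14 in sh1, and 12.5, 10.1 and 9.43 in sh2, and sh2 stood 1.21 ± 0.19 above sh1 (log2 ± SE, limma, adjusted p = 0.0451). The sh1 values lay below the controls, and sh2 overlapped them by a single value. Each of these calls lay just under the threshold. The EIF2AK3 call was lost with 6 of 9 libraries left out 1 at a time (every sh1 and sh2 library), with the replicate block (limma, adjusted p = 0.0550) and with spike-in scaling, while the difference stayed between 1.11 and 1.29. The SRPR difference from sh1 to sh2 lost its call with 6 of 9 libraries and with the block (limma, adjusted p = 0.0550). Its sh1 call was lost with 8 of 9 (kept without sh1 replicate 3). The VEGFA call was lost with 7 of 9 (kept without shNT replicate 1 or sh2 replicate 3). Spike-in scaling also removed the SRPR calls for sh1 and for sh2 against sh1 (limma, adjusted p = 0.345 and 0.145). Without the filter on low genes both SRPR calls were lost (limma, adjusted p = 0.0529 and 0.0992). So were those of EIF2AK3 and VEGFA (limma, adjusted p = 0.112 and 0.147). VEGFA, SRPR and EIF2AK3 are described because limma called them, and were not chosen by the rule for the lists.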

How the data were processed

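The authors deposited 1 table of FPKM values for 9 libraries and 23370 entries, 92 of them ERCC spike-ins. Per the submitters' processing notes, reads were placed on hg19. Which aligner, quantifier and annotation were used is not given in the sources used here. Depth per library is unknown, so no counting interval is given. Decimal points lost before 3 digits were restored by dividing 10255 of 10270 values without a point by 1000 (84 of 369 member values, in 25 members). Where a gene had values that kept their point, nearness to them decided. In genes with none, every value of 1000 or more was divided (1329 values). SLC3A2 had no value that kept its point.

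Differences were computed on log2(FPKM + 1), which understates changes of low genes, with limma 3.58.1 in R 4.3.3 (variance trend, two-sided, Benjamini-Hochberg adjustment over all genes tested, threshold 0.05). The 11952 genes averaging 1 FPKM or more entered 1 model of 3 groups, and the fit was also run on simulated data. The simulation had independent noise and a higher filter, without the correlation of same-numbered libraries given below. It therefore does not show how the tests behave on these libraries. "Called" means an adjusted p under 0.05. Python 3.11.15, numpy 2.4.6, pandas 2.3.3 and matplotlib 3.10.9 were used for tables, promoter searches and plots. The number test and leaving out whole numbers were added after seeing the data. Shares over all tested genes were counted for the orders of both hairpins against the control and of number 3 against the rest. They were not counted for orders of a single hairpin or for signs against the same-numbered control. Same-numbered libraries correlated in their deviations from group means in all 9 pairs (0.118 to 0.491). Pairs with different numbers ranged from -0.63 to 0.205, so the ranges overlapped. A replicate block was tried. The other alternatives were a pseudocount of 0.1, no filter, spike-in scaling, quantile normalization, only the groups compared, rows with a restored value left out, and each library left out.

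The members and lists were chosen with earlier results of these data known. Members described in full were ATF4, DDIT3, TRIB3, XBP1 and HSPA5 and, in each arm, the 5 with the smallest p over both hairpins and the 3 for sh2 against sh1. From each other list the 3 with the smallest p over both hairpins were eligible. ASNS, CHAC1, PSAT1 and the remaining genes with values in every library were chosen after their values were seen.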

Additional observations from a re-analysis of the deposited data

Results flagged for a closer look

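ATF5 stood on opposite sides of the control with the hairpins. All 3 sh1 libraries lay above the control with the same number and above the control mean, and all 3 sh2 libraries lay below both. The share of all tested genes with such a pattern was not counted, so this order alone does not set ATF5 apart. The log2 difference of sh2 from sh1 was -0.80 ± 0.17 (limma, adjusted p = 0.0911), which missed the threshold.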

How the results depend on the processing

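No member was called in any of the 4 hairpin comparisons under any alternative run. Members called by replicate number (2) became 0 without the filter, 12 with spike-in scaling, 4 with quantile normalization and 0 to 6 with 1 library left out. Genes called by number (47) became 7, 228 and 99 under the same settings, 25 without restored rows, and 2 to 209 with 1 library left out. Genes called over both hairpins (1) ranged from 0 to 3 with 1 library left out. For sh1 (20) the count was 3 with pseudocount 0.1, without the filter or without restored rows, 0 with spike-in scaling or only the groups compared, 77 with the replicate block and 0 to 14 with 1 library left out. For sh2 (1) it was 0 without the filter or with only the groups compared, 2 with spike-in scaling and 0 to 6 with 1 library left out. For sh2 against sh1 (26) it was 0 without the filter, 2 with spike-in scaling, 17 with the replicate block, 70 with only the groups compared and 0 to 52 with 1 library left out. Without all libraries of 1 number every count was 0, except 1 for sh2 against sh1 without number 3. The ATF4 arm median for sh2 against sh1 (-0.33) ranged from -0.43 to 0.19 with 1 library left out, the highest without sh1 replicate 3. With spike-in scaling the ER arm medians were 0.14 over both hairpins, 0.26 for sh2 and 0.31 for sh2 against sh1, where all genes stood at 0.14, 0.21 and 0.13. Signs over both hairpins turned for WARS (0.11 with spike-in scaling, 0.17 without number 3, -0.28 to 0.35 with 1 library left out) and HSPA5 (0.14 with spike-in scaling, 0.038 with quantile normalization, -0.17 to 0.066 with 1 left out). They also turned for DNAJB9 (-0.049 without number 1) and SEL1L (-0.086 without number 1, -0.19 to 0.21 with 1 left out). The cause was not tested. The replicate block changed no member's call.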
